A study of Homo sapiens with 8 samples.

Results

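The 9 genes described here make, carry and store catecholamines: *TH*, *DDC*, *DBH* and *PNMT* (synthesis), *SLC6A2* (uptake), *SLC18A1* and *SLC18A2* (vesicle loading), and *CHGA* and *CHGB* (granule proteins). They were chosen by name, with earlier results of these data known. They are 9 of 64486 genes in the GENCODE annotation on GRCh37, of which 20176 are protein-coding. MBD-seq, in which sheared DNA is captured with the methyl-CpG-binding domain of MBD2 and sequenced, was done on 8 established neuroblastoma (NB) cell lines, with 1 library per line and no treatment of the cells named in the labels. *MYCN* is amplified (MNA) in CHP-902R, IMR-32, LA-N-2 and N206. It is not amplified, here called single copy, in SK-N-AS, SJNB-1, SH-SY5Y and CLB-GA. Lines stand in for replicates of their *MYCN* group, so each p-value measures the spread between lines, and each line is a culture of 1 tumor with its own genetic background.

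Sympathetic neurons and adrenal chromaffin cells turn tyrosine into dopa with tyrosine hydroxylase (*TH*), dopa into dopamine with aromatic L-amino acid decarboxylase (*DDC*), dopamine into noradrenaline inside the vesicle with dopamine beta-hydroxylase (*DBH*), and noradrenaline into adrenaline with *PNMT*. The vesicular monoamine transporters VMAT1 (*SLC18A1*) and VMAT2 (*SLC18A2*) load the vesicle, the noradrenaline transporter NET (*SLC6A2*) takes released noradrenaline back into the cell, and the chromogranins (*CHGA*, *CHGB*) pack the dense-core granule. NB arises from precursors of this lineage; catecholamine metabolites in urine and uptake of the NET substrate MIBG are used in its diagnosis. Methylation of CpG sites at a promoter usually goes with silencing, whereas the transcribed body of a gene is often methylated.

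A peak is a stretch where the authors' peak caller found more MBD-captured reads than its background model predicts. Its score is the authors' own, −10 times the log10 of the MACS p-value, with 50 as the lowest value in each list. The lists held 70816 (SJNB-1) to 112412 peaks (LA-N-2), and they give no read counts, so a missing peak says only that none was called. LA-N-2 stood apart around some of the genes in spite of the longest list. It had no peak over a stretch of 968764 bp that contains *SLC6A2*, where each other line had 18 to 44 peaks. Its stretches without a peak around *DBH* (233194 bp), *TH* (179993 bp) and *PNMT* (329802 bp) held 7 or more peaks in each other line. Over the autosomes, stretches without a peak in which each other line had at least 7 peaks numbered 153 in LA-N-2, 98 in CLB-GA and 29 to 55 in the remaining 6 lines. That cutoff of 7 equals the lowest count of another line around *DBH*, *TH* and *PNMT*. By another measure LA-N-2 was not extreme: 7.06% of protein-coding genes had no peak in the body or 100 kb to either side. This share was 9.11% in CLB-GA, 7.955% in N206 and 3.61% to 6.56% in the remaining lines. Where a difference between the *MYCN* groups below changes from one sign to the other without LA-N-2, both values are given. Changes in size are given for some results only. A value given only with LA-N-2 may therefore also change in size without it.

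No peak lay over the main start of any of the 9 genes in any line. The canonical TSS, that of the transcript which the annotation ranks first, was free of peaks in all 72 pairs of a gene and a line. Over all protein-coding genes a peak covered the canonical TSS in 2.46% to 4.81% of genes per line, and in at least 1 line for 11.5% of genes. In the wider window that begins 1500 bp upstream and ends 1000 bp downstream of this TSS, 4 of the 72 pairs (5.56%) had a peak, against a mean over lines of 16.3% of protein-coding genes (range 14.3% to 21.1%). These 4 were *DDC* in LA-N-2 and N206, and *SLC6A2* and *SLC18A2* in SJNB-1. So 3 of the 9 genes had such a peak in at least 1 line, beside 48.9% of protein-coding genes. The peak nearest to a canonical TSS was that of *SLC6A2* in SJNB-1, 546 bp upstream.

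The start regions themselves are rich in CpG in some of these genes and poor in others. The canonical window held 161 CpG in *SLC18A2* (6.44 per 100 bp), 154 in *PNMT* (6.16), 153 in *SLC6A2* (6.12) and 112 in *CHGA* (4.48), all above the median of protein-coding genes, 4.20 per 100 bp. *CHGB* (3.08 per 100 bp), *TH* (2.88), *DBH* (2.44), *DDC* (1.04) and *SLC18A1* (0.920) lay below it. At least 95.4% of the 45 bp stretches in each of these windows occur once in GRCh37. The 250 bases before the RefSeq TSS are shown for *SLC18A2* and *CHGA*, as examples of CpG-rich starts without a peak over them, and for *DBH*, as an example with few CpG; capitals mark each CpG.
SLC18A2, chr10:119000375-119000624, plus strand, GRCh37: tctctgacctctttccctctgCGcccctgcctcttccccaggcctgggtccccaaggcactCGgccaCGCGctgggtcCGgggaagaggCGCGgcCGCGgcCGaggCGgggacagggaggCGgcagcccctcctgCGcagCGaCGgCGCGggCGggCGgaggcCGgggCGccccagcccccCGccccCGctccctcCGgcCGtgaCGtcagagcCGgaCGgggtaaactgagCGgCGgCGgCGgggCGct
CHGA, chr14:93389245-93389494, plus strand, GRCh37: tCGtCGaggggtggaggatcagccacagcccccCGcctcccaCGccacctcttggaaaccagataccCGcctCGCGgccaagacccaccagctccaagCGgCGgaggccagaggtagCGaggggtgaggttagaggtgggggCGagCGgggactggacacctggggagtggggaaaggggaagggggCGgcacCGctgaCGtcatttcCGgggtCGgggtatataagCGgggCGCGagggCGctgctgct
DBH, chr9:136501235-136501484, plus strand, GRCh37: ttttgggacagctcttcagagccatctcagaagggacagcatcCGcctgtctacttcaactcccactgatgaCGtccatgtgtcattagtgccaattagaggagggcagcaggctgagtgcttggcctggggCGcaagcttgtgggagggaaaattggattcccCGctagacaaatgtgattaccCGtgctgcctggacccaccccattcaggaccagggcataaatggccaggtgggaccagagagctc
These stretches hold 33, 21 and 5 CpG. They come from the RefSeq promoter table (GRCh38.p14), each matched letter for letter to GRCh37. The full CRE, the palindrome TGACGTCA bound by factors of the CREB family, was searched in the 300 bases around the RefSeq TSS on both strands. It was present in *SLC18A2*, starting 48 bases before the TSS, and in *CHGA*, 54 bases before it, and in 1.85% of all 35116 promoters of the table. It was absent from these windows of *DBH* and *DDC*, the other members with an entry in the table.

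When every annotated TSS was counted, internal starts included, 25 of the 72 pairs (34.7%) had a promoter peak, beside 36.9% of protein-coding genes per line on average (range 33.2% to 40.9%). Of these 25 pairs, 21 had it only in the window of a start other than the canonical one. At least 1 line had a promoter peak in 7 of the 9 genes, beside 73.9% of protein-coding genes, and *DBH* and *PNMT* had none in any line. *DDC* and *SLC6A2* each had one in 7 lines, as 13.4% of protein-coding genes had in at least 7. *SLC18A1* followed with 5 lines, *TH* and *CHGA* with 2 each, and *SLC18A2* and *CHGB* with 1 each. The median over the 9 genes was 2 lines, and over all protein-coding genes also 2. These counts were not scaled by the number of annotated starts, and more starts give more windows. *DDC* has 10 annotated starts, *SLC18A1* 9, *SLC6A2* 8, and *TH* and *CHGA* 6 each. *PNMT* and *CHGB* have 3 each, and *DBH* and *SLC18A2* 2 each.

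A gene body peak was found in 51 of the 72 pairs (70.8%), beside 65.4% of protein-coding genes per line on average (range 63.5% to 67.9%). Each of the 9 genes had one in at least 1 line, beside 88.3% of protein-coding genes. *DDC*, *SLC18A1* and *SLC18A2* had one in all 8 lines, as did 32.8% of protein-coding genes. *SLC6A2* and *CHGB* had one in 7 lines, *TH* and *DBH* in 4, *CHGA* in 3 and *PNMT* in 2. The number of genes per line with a gene body peak ran from 4 in SH-SY5Y to 8 in CHP-902R and CLB-GA. The counts were not scaled by gene length: *DDC*, the gene with most peaks, is 106969 bp long, and *PNMT*, with fewest lines, 2495 bp.

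**Figure D1:**
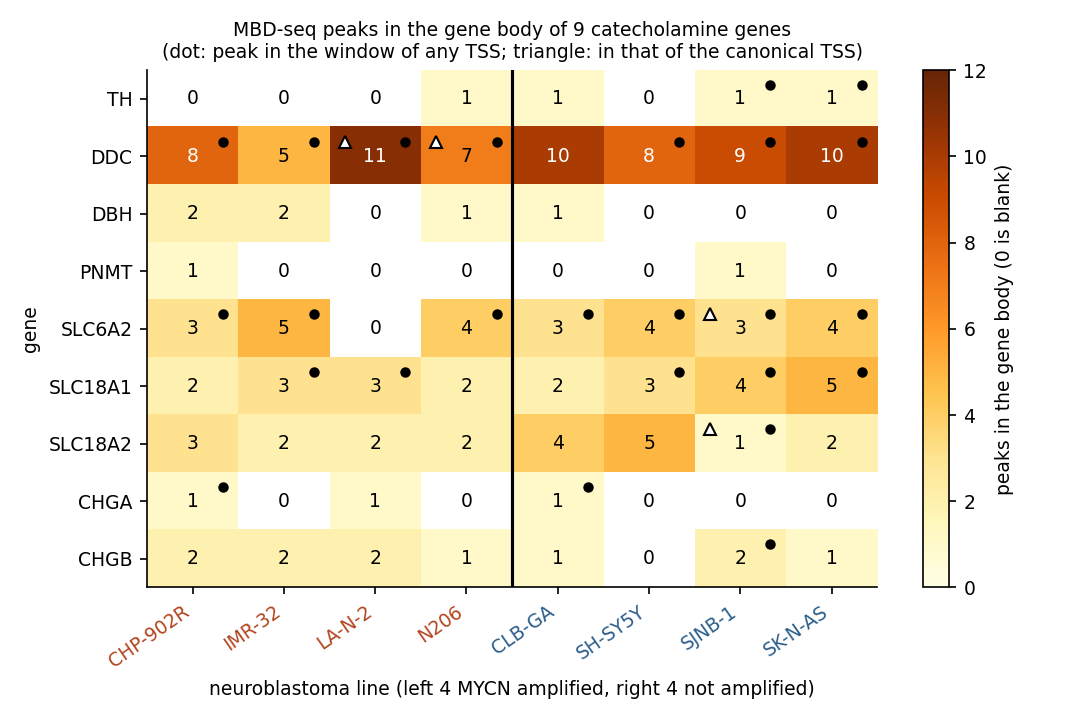
Number of MBD-seq peaks in the body of each gene (rows) in each NB line (columns, MNA left of the bar and single copy right of it), with a dot where the window of any TSS has a peak and a triangle where that of the canonical TSS has one. *DDC* has 5 to 11 peaks in each line, and triangles stand in 4 cells only.

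*TH*, the rate-limiting enzyme of the pathway (chr11:2185159-2193045, minus strand), had a peak in N206 among the MNA lines and in CLB-GA, SJNB-1 and SK-N-AS among the single copy lines. The share of the gene under peaks was 8.75% in N206 and 0 in the other 3 MNA lines, and 8.33% in CLB-GA, 18.3% in SJNB-1, 17.9% in SK-N-AS and 0 in SH-SY5Y. The groups overlap at 0 and at about the level of N206 and CLB-GA. The peaks of N206 and CLB-GA lay over coding exon 13 near the 3′ end of the gene, with scores of 68.2 and 67.8. The peak of SJNB-1 spanned exons 3, 4 and 5, 2583 bp downstream of the canonical TSS, and that of SK-N-AS exons 7 to 11. No line had peaks in more than 1 of these 3 places.

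*DDC*, the decarboxylase that makes dopamine (chr7:50526134-50633102, minus strand), had 37 of the 81 merged regions of the 9 genes, a merged region being a run of overlapping or touching peaks of the 8 lines. Of these 37 regions, 24 had a peak in 1 line only. The 2 most shared regions are shown, read along the gene, with CpG in capitals and leaving out UTR.
DDC, 7 lines, chr7:50560634-50560775, minus strand, GRCh37: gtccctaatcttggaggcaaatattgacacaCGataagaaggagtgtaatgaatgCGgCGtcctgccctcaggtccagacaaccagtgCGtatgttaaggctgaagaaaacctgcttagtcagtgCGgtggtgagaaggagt
DDC, 6 lines, chr7:50607486-50607785, minus strand, GRCh37: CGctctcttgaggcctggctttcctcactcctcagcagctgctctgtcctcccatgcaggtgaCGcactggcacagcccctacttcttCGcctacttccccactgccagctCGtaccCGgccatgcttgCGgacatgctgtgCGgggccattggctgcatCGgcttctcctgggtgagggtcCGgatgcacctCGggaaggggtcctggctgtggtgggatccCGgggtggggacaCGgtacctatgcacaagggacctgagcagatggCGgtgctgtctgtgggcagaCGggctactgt
The first is part of the 243 bp common to the peaks of all lines but IMR-32, which together span 71835 to 72930 bp downstream of the canonical TSS. The region is intron in the canonical transcript and overlaps the last exon of a shorter one. Its scores were 177 in SH-SY5Y, 159 in CHP-902R, 139 in SJNB-1, 102 in CLB-GA, 97.5 in N206, 56.3 in LA-N-2 and 73.3 in SK-N-AS. Within its own list this peak ranked above 98.8% of peaks in SH-SY5Y and above 13.9% in LA-N-2. The second overlaps coding exon 3 and the start of another transcript and is otherwise intron. Its merged peaks span 25254 to 25802 bp downstream, and it had peaks in all lines but IMR-32 and CLB-GA. The antisense gene *DDC-AS1* overlaps it, and MBD-seq does not tell strands apart. Its score was 128 in SH-SY5Y and 53.1 to 87.1 in the other 5 lines.

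*DBH*, which makes noradrenaline (chr9:136501485-136524451, plus strand), had peaks in CHP-902R, IMR-32 and N206 of the MNA lines and in CLB-GA of the single copy lines. The share of the gene under peaks was 10.2% in CHP-902R, 11.6% in IMR-32, 8.09% in N206 and 0 in LA-N-2, against 3.05% in CLB-GA and 0 in the other 3 single copy lines. Only the 0 of LA-N-2 fell into the range of the single copy lines. The peaks of all 4 lines shared a stretch of 557 bp over coding exon 3, and those of IMR-32 and N206 reached exon 4; the merged peaks lay 5372 to 7617 bp downstream of the TSS. Its part with most CpG is shown, as the one place where this gene was marked in more than 1 line.
DBH, 4 lines, chr9:136507317-136507616, plus strand, GRCh37: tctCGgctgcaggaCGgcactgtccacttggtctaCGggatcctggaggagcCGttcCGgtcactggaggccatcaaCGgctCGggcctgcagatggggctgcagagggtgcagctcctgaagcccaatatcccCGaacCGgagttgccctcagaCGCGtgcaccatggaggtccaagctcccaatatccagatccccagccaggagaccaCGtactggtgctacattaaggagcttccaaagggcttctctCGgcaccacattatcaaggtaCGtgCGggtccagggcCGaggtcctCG
These 300 bases hold 17 CpG (5.67 per 100 bp), more than any other peak sequence shown here. The score was 78.4 in CHP-902R, 74.1 in CLB-GA, 69.3 in N206 and 63.7 in IMR-32, above 63.8%, 51.0%, 50.9% and 34.3% of the peaks in the line's own list. Exon 6 had a further peak in CHP-902R. Exon 10, which *DBH-AS1* overlaps, had one in IMR-32.

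*PNMT*, which makes adrenaline (chr17:37824234-37826728, plus strand), had a peak in 2 lines, 1 of each group. It covered 35.8% of the gene in CHP-902R and 20.04% in SJNB-1, over coding exon 3 in both and also exon 2 in CHP-902R. The gene is short, and these peaks were 946 and 500 bp wide. The promoter window of *PNMT*, which reaches into the neighbor *TCAP*, had no peak in any line.

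*SLC6A2*, the noradrenaline transporter (chr16:55689900-55741557, plus strand), carried the most shared region together with that of *DDC*. All lines but LA-N-2 had a peak 14972 to 16536 bp downstream of the canonical TSS, over coding exon 4 and the start of a shorter transcript. The part with most CpG of the stretch that all 7 lines share, past that start, is shown.
SLC6A2, 7 lines, chr16:55705759-55706058, plus strand, GRCh37: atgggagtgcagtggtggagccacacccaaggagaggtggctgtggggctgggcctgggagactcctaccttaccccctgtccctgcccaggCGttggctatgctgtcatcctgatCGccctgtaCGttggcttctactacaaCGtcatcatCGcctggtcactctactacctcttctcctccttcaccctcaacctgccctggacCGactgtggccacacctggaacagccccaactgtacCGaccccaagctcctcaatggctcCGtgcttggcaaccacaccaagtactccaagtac
The score was 167 in IMR-32, 164 in CHP-902R, 163 in SH-SY5Y, 137 in SK-N-AS, 128 in N206, 118 in CLB-GA and 52.5 in SJNB-1. In 6 of the 7 lines this peak ranked above 91.3% or more of the peaks in the line's own list, and in SJNB-1 above 9.77%. SJNB-1 was also the line with a peak upstream of the canonical TSS, at −917 to −546 bp. Regions in 4 lines each lay in an intron 26735 bp downstream (IMR-32, CLB-GA, SH-SY5Y, SJNB-1) and over coding exon 6 (CHP-902R, IMR-32, N206, SJNB-1). A region over the last exon, inside an overlapping unnamed gene, had a peak in CHP-902R, IMR-32 and N206 and in no single copy line, so that without LA-N-2 it separated the groups. Over all 8 lines it did not (two-sided Fisher's exact test, unadjusted p = 0.143). The share of all merged regions that separate the groups without LA-N-2 is not given here. The share of the gene under peaks was 3.61% in CHP-902R, 6.18% in IMR-32, 4.52% in N206 and 0 in LA-N-2, and 2.46% to 6.19% in the single copy lines.

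*SLC18A2* (VMAT2, the vesicular transporter of monoamine neurons; chr10:119000604-119038941, plus strand) had 1 to 5 peaks in the gene body of each line. The share under peaks ran from 2.98% to 3.93% in the MNA lines and from 2.15% to 6.43% in the single copy lines, so that the range of the first lay inside that of the second. A region over coding exon 5, 12452 to 13163 bp downstream of the canonical TSS, had peaks in CHP-902R, LA-N-2 and CLB-GA. The window of the canonical TSS, in which the antisense gene *SLC18A2-AS1* lies, had a peak in SJNB-1 only. That peak, at −2005 to −1433 bp, reached only the upstream edge of the window. LA-N-2 had an overlapping peak at −2063 to −1529 bp, which ended just short of the window.

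**Figure D2:**
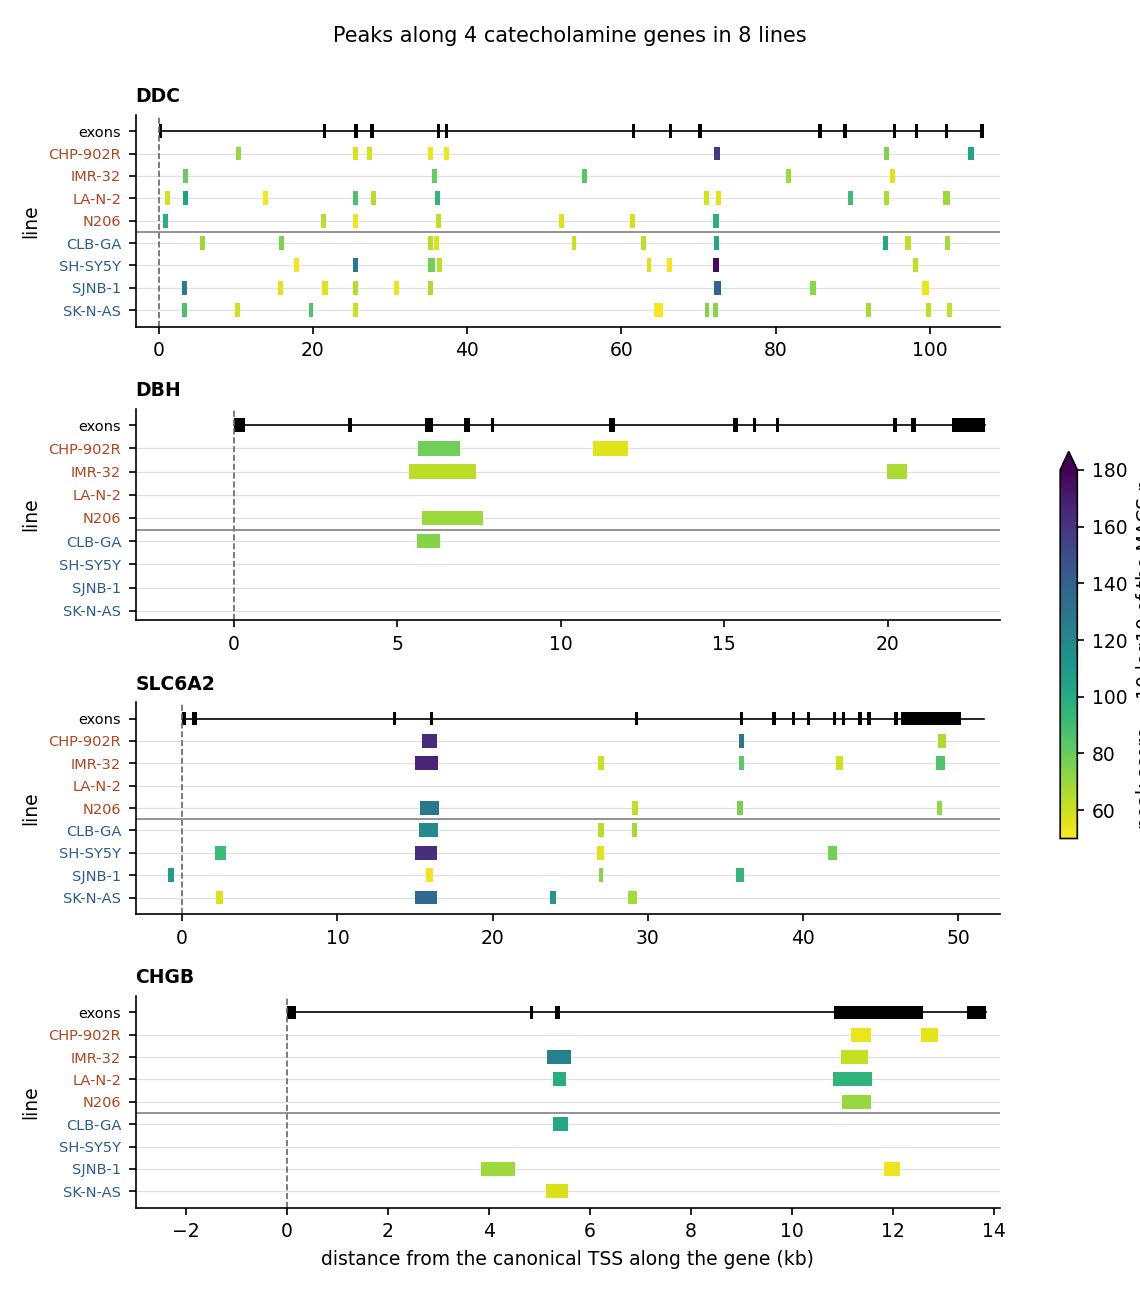
Peaks of the 8 lines along 4 genes, by distance from the canonical TSS in kb; the top row gives the exons of the canonical transcript, and peaks are colored by score. The peaks over exon 4 of *SLC6A2* line up in 7 lines and those over the large exon of *CHGB* in the 4 MNA lines (names in orange), and no bar crosses the dashed line of the TSS; short peaks and exons are drawn at a minimum width.

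*SLC18A1* (VMAT1, the vesicular transporter typical of endocrine cells; chr8:20002366-20040717, minus strand) also had a peak in the gene body of each line, 2 to 5 peaks each. The share under peaks was 2.46% to 4.12% in the MNA lines and 2.65% to 6.45% in the single copy lines. The 10 merged regions were spread over the gene, and the most shared one lay over coding exon 3, 3527 to 4175 bp downstream of the canonical TSS. It had peaks in IMR-32, N206, CLB-GA, SH-SY5Y and SJNB-1, with scores of 52.8 to 90.2. The promoter peaks of this gene, in 5 lines, all belonged to internal starts.

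*CHGA*, the chromogranin measured as a serum marker of neuroendocrine tumors (chr14:93389495-93401630, plus strand), had few peaks. CHP-902R and CLB-GA, 1 line of each group, had a peak of 1196 and 1204 bp over coding exon 7, with scores of 55.0 and 56.8. LA-N-2 had one over exon 8. No peak was called in the gene in the other 5 lines.

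*CHGB*, the second chromogranin (chr20:5892156-5905999, plus strand), had the only merged region of the 9 genes that separated the *MYCN* groups, and it is described because of this pattern. All 4 MNA lines and no single copy line had a peak at the start of the large coding exon 4, 10822 to 11576 bp downstream of the TSS. The part with most CpG of the 329 bp common to the 4 peaks is shown.
CHGB, 4 MNA lines, chr20:5903347-5903646, plus strand, GRCh37: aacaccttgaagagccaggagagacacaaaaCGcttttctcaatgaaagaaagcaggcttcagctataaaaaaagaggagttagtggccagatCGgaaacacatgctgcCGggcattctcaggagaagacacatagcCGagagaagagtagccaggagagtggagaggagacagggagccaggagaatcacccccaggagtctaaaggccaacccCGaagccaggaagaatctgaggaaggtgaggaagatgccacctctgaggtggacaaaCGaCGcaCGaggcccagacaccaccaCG
The scores were 95.7 in LA-N-2, 70.5 in N206, 61.6 in IMR-32 and 53.7 in CHP-902R. The last is close to the lowest score that a list can hold, 50. SJNB-1, a single copy line, had a separate peak further along the same exon (chr20:5903985-5904298). The unadjusted p of this region was 0.0286 in a two-sided Fisher's exact test, the smallest that 4 against 4 lines allow, and 1 after Benjamini-Hochberg adjustment over all 369287 merged regions. It was 1 of 81 regions (1.23%), beside 0.12% of all merged regions with a peak in all MNA lines and no other. Among regions with a peak in exactly 4 lines, it was 1 of 7 in these genes, and 2.23% of 19789 in all. With only peaks of score 100 or more, or with the same number of peaks per line, no region separated the groups. A further region of *CHGB*, over coding exon 3, had peaks in 2 lines of each group, IMR-32, LA-N-2, CLB-GA and SK-N-AS.

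None of the 9 genes separated the *MYCN* groups by the presence of a peak. The study set MNA lines against the others to look for methylation that goes with *MYCN* status. It compared tag counts and reported regions that differed between the groups, some of them close to a TSS. The presence of a peak, tested here, is another measure. By two-sided Fisher's exact tests over all 64486 genes, 0 of the 9 genes passed an unadjusted p of 0.05, for promoter or for gene body peaks, as 0.197% and 0.119% of all genes did. The adjusted p was 1 for each of the 9 genes. No annotated gene had a lower one, with 0.0286 as the smallest unadjusted p of Fisher's exact test for 4 against 4 lines. To fall under 0.05, a gene needs a peak in all 4 lines of 1 group and in none of the other. These tests therefore cannot show that the groups are alike. The lowest unadjusted p was 0.429 for promoter peaks, in *TH* (0 of 4 MNA and 2 of 4 single copy lines), and 0.486 for gene body peaks, in *TH* (1 and 3 lines) and *DBH* (3 and 1 lines). Without LA-N-2 the gene body peak of *DBH* was in 3 of 3 MNA lines (Fisher's exact p = 0.143), and *SLC6A2*, with promoter and gene body peaks in 3 of 4 MNA lines and all single copy lines, had both in all 7 remaining lines. A promoter peak was found in 2.50 ± 0.577 of the 9 genes per MNA line and in 3.75 ± 1.71 per single copy line (SD, n = 4), and a gene body peak in 6.50 ± 1.29 and 6.25 ± 1.71. Over all protein-coding genes the mean share with a promoter peak was 38.6% in MNA and 35.2% in single copy lines. For gene body peaks that share was 66.6% and 64.2%. SJNB-1, the line with the shortest list, had the most genes with a promoter peak, 6 of 9, beside 33.2% of protein-coding genes in that line.

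The share of the gene body under peaks differed by an unadjusted p under 0.05 in *DDC* alone. It was 3.87% in CHP-902R, 2.10% in IMR-32, 4.31% in LA-N-2 and 3.73% in N206, whereas SJNB-1 had 5.74%, SK-N-AS 5.33%, SH-SY5Y 4.68% and CLB-GA 4.37%. Each single copy line lay above each MNA line, with LA-N-2 and CLB-GA nearly level. The mean was 3.50 ± 0.964% in the MNA lines and 5.03 ± 0.622% in the others (SD, n = 4; two-sided exact permutation test, p = 0.0286, the smallest possible; 1 after adjustment over all genes). In this test 1.18% of all 64486 annotated genes had an unadjusted p under 0.05. These include genes without a peak in any line, which cannot pass, whereas *DDC* had peaks in each line. The share among genes with peaks in each line is not given here. Over all protein-coding gene bodies, pooled by length within each line, the share ran the other way, 2.59 ± 0.258% in MNA and 2.10 ± 0.256% in single copy lines. With the same number of peaks per line the difference in *DDC* was −2.34 percentage points (exact p = 0.0286). With only peaks of score 100 or more it was −0.45 (exact p = 0.486). Leaving out IMR-32 gave −1.06, and leaving out a single copy line −1.75 to −1.29, each with an exact p of 0.0571.

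In *DBH* the mean share was 7.47 ± 5.18% in MNA and 0.763 ± 1.53% in single copy lines (SD, n = 4; exact permutation test, p = 0.143). Without LA-N-2 the difference grew from 6.71 to 9.20 percentage points, and the groups no longer overlapped (exact permutation test of 3 against 4 lines, p = 0.0286, adjusted p = 1). This was the largest of the 8 differences found on leaving out 1 line, which ran from 5.33 to 9.20. The share of all genes with such a p without LA-N-2 is not given here. In *TH* the means were 2.19 ± 4.37% and 11.1 ± 8.74% (exact permutation test, p = 0.257), and in *CHGB* 6.05 ± 1.56% and 3.12 ± 2.95% (p = 0.114 in the same exact test). In the remaining 5 genes the p of the exact permutation test was 0.229 or more. In *SLC6A2* the direction rested on LA-N-2: the difference was −0.82 percentage points with it and 0.371 without it. Whether the gaps of LA-N-2 play a part in these values was not tested. Summed over the 9 genes, 3.92 ± 0.680% of the gene bodies was covered in MNA and 4.34 ± 0.318% in single copy lines, with LA-N-2 lowest at 2.97%. Without LA-N-2 the MNA lines had 4.23 ± 0.299% (SD, n = 3).

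**Figure D3:**
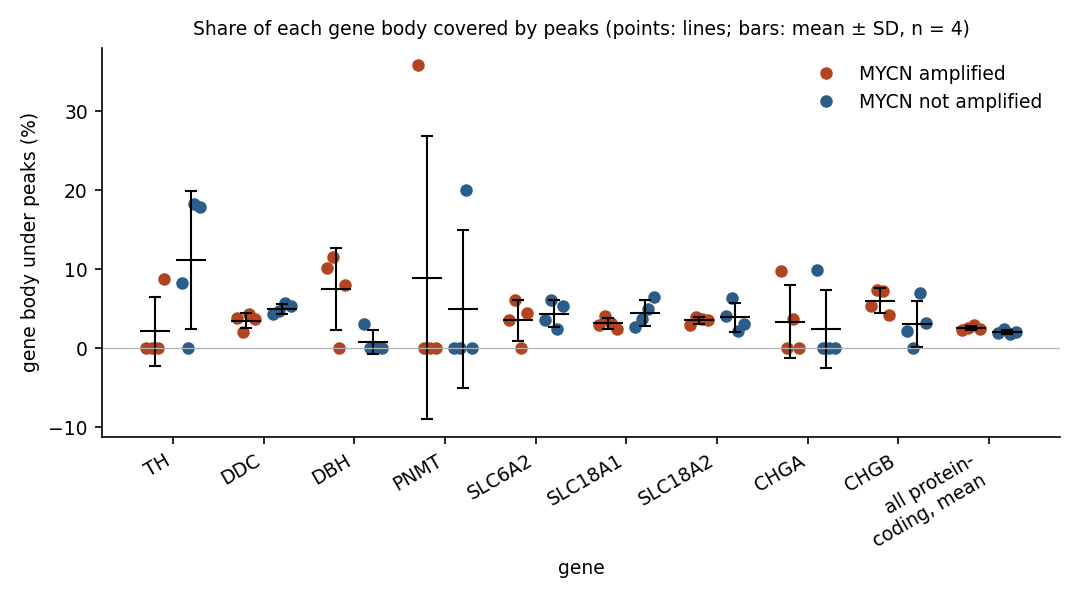
Share of each gene body under peaks in percent, with 1 point per line, the mean and the SD of each *MYCN* group (n = 4). At the right, labeled as a mean, is the share over all protein-coding gene bodies pooled by length. In *DDC* the single copy lines (4.37% to 5.74%) lie above the MNA lines (2.10% to 4.31%); in *TH*, *DBH*, *PNMT* and *CHGA* several lines are at 0.

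About as many regions were private to a line as were shared. Of the 81 merged regions, 41 (50.6%) had a peak in 1 line, beside 56.2% of all merged regions, and 4 (4.94%) in at least 6 lines, beside 3.53%. None had a peak in all 8. By place, 35 regions overlapped a coding exon of the canonical transcript, 39 lay in an intron, 3 in an exon of another transcript, 2 in an untranslated exon and 2 outside the gene. Of the 13 regions with peaks in at least 4 lines, 8 overlapped a canonical coding exon and 4 lay in an intron. A region that overlapped a coding exon in part was counted there. The shares of these places over all merged regions are not given here, so the counts do not show a preference for exons. The regions held 168 peaks, of which 27 had a score of at least 100.

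The CpG density of the merged regions had a median of 2.10 per 100 bp in the 9 genes and 2.36 over all merged regions, and it was above that of the whole genome in 79 of the 81. Over all merged regions the median rose with the number of lines, from 2.26 with 1 line to 3.52 with 8 lines. In the 9 genes it was 2.03 with 1 line and 1.96 with at least 4 lines, beside 2.67 over all merged regions with at least 4. The regions of *SLC6A2* and *DDC* in 7 lines had 2.88 and 3.10 CpG per 100 bp.

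**Figure D4:**
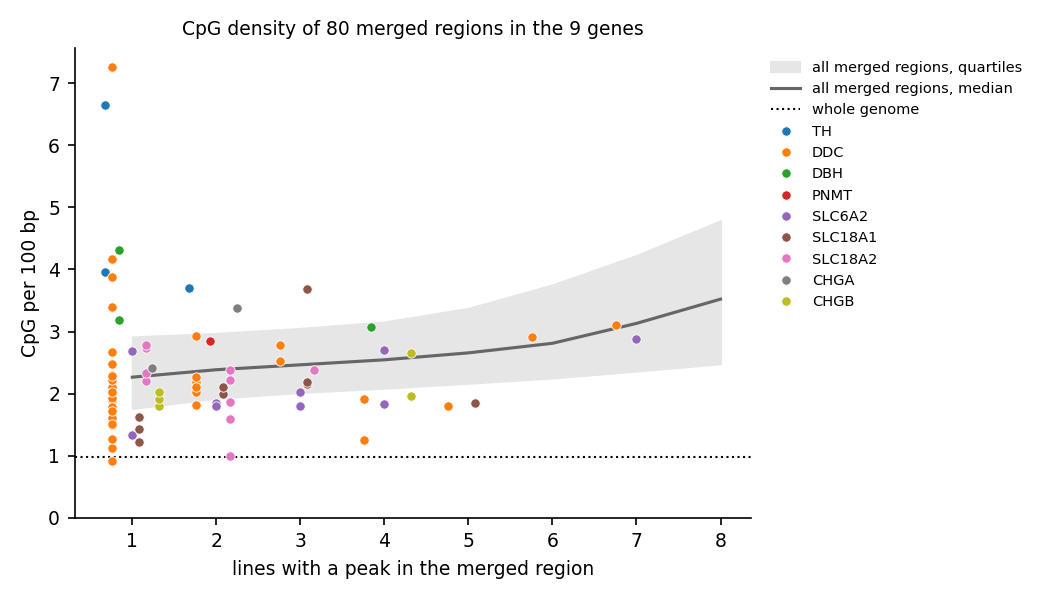
CpG per 100 bp of 80 of the 81 merged regions (points, colored by gene, slightly shifted sideways) against the number of lines with a peak there, with the median and quartiles of all 369287 merged regions and the level of the whole genome. The regions in 7 lines, with 2.88 and 3.10 CpG per 100 bp, lie near the median of all regions.

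Genes around the same pathway ranged from promoter peaks in all lines to none. A list of 41 genes was taken for the cofactor of *TH*, the breakdown of catecholamines, other monoamine enzymes and transporters, adrenoceptors and dopamine receptors, and the dense-core vesicle. None of the 41 separated the groups by Fisher's exact test at an unadjusted p of 0.05 in either direction, for promoter or gene body peaks. A promoter peak in at least 1 line was found in 34 of the 41, beside 73.9% of protein-coding genes, and the median was 3 lines, beside 2. All 8 lines had one in *ALDH2*, the mitochondrial aldehyde dehydrogenase, in the adrenoceptor *ADRA1A*, in *CYB561*, the cytochrome that renews ascorbate for *DBH* inside the vesicle, in *SCG5*, the chaperone of *PCSK2*, and in *CADPS*, which readies dense-core vesicles for release. The window of the canonical TSS had a peak in 6 lines in *ALDH2* and *CYB561*, in 3 in *SCG5*, and in 1 in *ADRA1A* and *CADPS*. In the other lines only windows of other starts had a peak. At least 7 lines had a promoter peak in 10 of the 41 genes, beside 13.4% of protein-coding genes. No line had one in the dopamine receptor *DRD4*, the sulfotransferase *SULT1A3*, or 5 of the 11 dense-core vesicle genes: the granins *SCG2*, *SCG3* and *VGF*, the prohormone convertase *PCSK2* and carboxypeptidase E (*CPE*). *SULT1A3* has a near-identical copy in the genome, so its lack of peaks is uncertain. The 14 receptors had a median of 6 lines and the 11 vesicle genes one of 2, the same as the 9 genes described here.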

How the data were processed

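MBD-seq peak lists of 8 NB lines were used, 1 per line. The authors mapped paired-end reads with Bowtie 0.12.7 on GRCh37, and MACS was run by line; the deposited score is −10·log10 of the MACS p-value. Options of the peak calling and an input control are not given in the sources used here. The lists hold no counts, so the reads behind a single peak are unknown from them, and presence or absence per line was tested in place of counts. Raw reads and signal tracks were not used here. Groups were taken from the *MYCN* status in the labels.

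Genes and TSS came from GENCODE release 44 on GRCh37. A peak had to overlap a window (1500 bp upstream to 1000 bp downstream of a TSS) or a gene body by 1 bp. Two-sided Fisher's exact tests and exact permutation tests of the mean share under peaks were run over all 64486 genes with Benjamini-Hochberg adjustment, in Python 3.11.15 with numpy 2.4.6 and scipy 1.17.1, and tested on simulated data. As alternatives, a minimum score of 100, equal numbers of peaks per line (70816), the peak midpoint, an overlap of 100 bp, a window to 500 bp, 1 TSS per gene, and leaving out each line were tried. Those for merged regions were chosen after seeing the data. The members and lists were chosen with earlier results of these data known. Named from the list of related genes are those with a promoter peak in all 8 lines or in none; any that separated the groups would have been named. Of the genes that overlap a member, those in or beside a peak or promoter described are named. One merged region is not reported here. RefSeq promoter sequences were matched for 4 of the 9 genes.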

Additional observations from a re-analysis of the deposited data

Results flagged for a closer look

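Of 22 groups of 4 lines examined, not all of them for the share of a single gene under peaks, 5 were flagged. All 5 were for that share: 1 line had a peak and the other 3 were at 0, so that this line stood far from the rest. Chance alone gives such a distance in about 1 in 20 groups, and a share that is 0 without a peak gives it whenever 1 line of 4 has one. In the MNA lines these were *TH* in N206, with 8.75% of the gene under peaks, and *PNMT* in CHP-902R, with 35.8%. In the single copy lines they were *DBH* in CLB-GA (3.05%), *PNMT* in SJNB-1 (20.04%) and *CHGA* in CLB-GA (9.92%).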

How the results depend on the processing

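Of 386 recomputed values, 8 changed from one sign to the other and 6 moved by more than 1 SD over lines or, for counts, 1.5 times; the other 372 did neither, though some differences went to or from 0. The lowest adjusted p was 1, which with so few lines does not show that the groups are alike. With peaks of score 100 or more, 1.375 of the 9 genes per line had a promoter peak and 2.375 a gene body peak, against 3.125 and 6.375; the number of regions separating the groups was 0, and the difference in *SLC18A1* cover was 0.387 percentage points. With equal numbers of peaks per line, 0 regions separated the groups, and the differences changed direction for gene body peaks in *CHGA* (−25% of lines) and for cover in *PNMT* (−5.01) and *CHGA* (−2.48). With 1 TSS per gene, 0.5 genes per line had a promoter peak. On leaving out single lines, the difference in cover ran from −5.01 to 8.96 percentage points in *PNMT*, −1.23 to 3.40 in *CHGA*, −1.69 to 0.371 in *SLC6A2* and −0.99 to 0.433 in *SLC18A2*, which changed direction without CHP-902R (*PNMT*, *CHGA*), LA-N-2 and SH-SY5Y; 1 to 2 regions separated the groups, 2 of them without LA-N-2. The cause of these changes was not tested. Of 324 gene tests under the alternatives, 5 had an unadjusted p under 0.05, 4 in *DDC* cover and 1 in *DBH* cover. No paired analysis was possible because the replicate numbers only name the lines and the labels pair none. Without counts, the depth behind a missing peak is unknown, and scores rank peaks within a list only.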
